A study of Mus musculus with 12 samples.

Results

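Genes that mark oligodendrocyte precursor cells were followed in the hippocampus of USF-1 KO mice, which lack upstream stimulatory factor 1, and of WT littermates. They were chosen by name, as 7 genes of early precursors (Pdgfra, Cspg4, Vcan, Ptprz1, Lhfpl3, Sox6 and C1ql1) and 3 genes of committed precursors (Gpr17, Neu4 and Bmp4), and are 10 of the 55487 genes in the deposited table. The choice was made with earlier results of these data known. All 10 were read in every mouse and reached the mean of 10 normalised counts that a gene needed to be tested. RNA of the hippocampus was sequenced from 6 WT and 6 USF-1 KO mice, with a library from each mouse. All mice were of the C57Bl/6JRccHsd strain, were 3 to 4 months old per the labels and came from crosses of heterozygous parents. The deficiency is constitutive, and so neither limited to a cell type nor switched on in the adult. The labels give 4 females and 2 males in the WT group, and 2 females and 4 males in the KO group, so sex and genotype were partly mixed. Mice are called WT 1 to WT 6 and KO 1 to KO 6 in the order of their labels, and the numbers pair no mice.

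Oligodendrocyte precursors are glial cells that stay in the adult brain, divide slowly and give rise to myelinating oligodendrocytes. Early precursors carry the receptor for platelet-derived growth factor and a coat of chondroitin sulphate proteoglycans. On the way to differentiation they lose these and pass through a brief committed stage, marked by the orphan receptor Gpr17, before the genes of the myelin sheath come on. USF-1 is a transcription factor present in most tissues that binds the DNA letters CACGTG, a form of the E-box. The comparison asks how the genes of each precursor stage, and those of the pathways they belong to, stood with and without USF-1.

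Because USF-1 binds CACGTG, these letters were searched in the promoters of the precursor genes, taken as the 250 bases before and 50 bases after each transcription start in RefSeq on GRCm38.p6. The motif reads the same on both strands. Of the 10 genes, 8 matched an entry, with 13 promoter windows in all; C1ql1 and Gpr17 had none. Bmp4 alone among the 8 held the motif, once, with its first base 188 bases before the start. In the same table, 8.09% of 27025 mouse genes held it in at least 1 promoter. Of all 32851 promoters there 7.15% held it, beside 1 of the 13 windows here. The 250 bases before the Bmp4 start (chr14:46390670-46390919, GRCm38.p6, minus strand) are shown 5′ to 3′ with the motif in capitals.
Bmp4: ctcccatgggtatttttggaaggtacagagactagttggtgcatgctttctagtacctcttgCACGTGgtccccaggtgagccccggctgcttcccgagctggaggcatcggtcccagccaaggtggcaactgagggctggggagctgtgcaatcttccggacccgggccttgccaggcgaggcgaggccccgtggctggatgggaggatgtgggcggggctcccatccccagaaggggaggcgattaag
A match of these letters is a description of the sequence, and binding was not measured here.

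Usf1 itself was read first, as the check of the labels. Its normalised count, which is a read count divided by a factor for the depth of its library, was 1409 ± 284 in WT mice and 141 ± 15.0 in KO mice (mean ± SD, n = 6 each). Every KO mouse (117 to 163) was below every WT mouse, and WT 5 stood apart from the other WT mice with 842 against 1425 to 1583. Libraries held 23369928 to 32091173 reads on genes in the WT group and 21679622 to 30859179 in the KO group. Markers of hippocampal neurons were present in every library, with a summed level over 10 genes of 156344 to 198451 in WT and 148641 to 222184 in KO mice. Markers of the choroid plexus, a secretory tissue of the ventricles that lies next to the hippocampus, were far higher in WT 1 (summed 59529) and WT 5 (167182) than in the other 10 mice (935 to 2879). The differences of the precursor genes are therefore given with and without these libraries.

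Among the early genes, the KO mean was 84.6% of the WT mean for Vcan, 85.3% for Lhfpl3, 85.4% for Pdgfra, 86.5% for Sox6, 93.9% for C1ql1, 94.6% for Ptprz1 and 95.2% for Cspg4. Among the committed genes it was 74.2% for Bmp4, 78.0% for Gpr17 and 84.4% for Neu4. All 10 thus had a lower mean in KO mice, and none passed the test of genotype over all genes. The test was limma on log2(normalised count + 1), two-sided, with Benjamini-Hochberg adjustment over 18221 genes and a threshold of 0.05. Of the 18221 genes, 0.900% passed it, 0.741% with a lower level in KO mice, and 50.2% had a lower fitted mean in KO mice, against 10 of the 10 precursor genes. At an unadjusted p under 0.05, 6 of the 10 were lower in KO mice (Gpr17, Vcan, Pdgfra, Neu4, Sox6 and Lhfpl3), where the share among all genes was 7.60%. Since the 10 genes were chosen with earlier results of these data known, such counts are descriptions and no test of the list. By edgeR 0 of the 10 passed, where 0.829% of all genes did, and 5 were lower in KO mice at an unadjusted p under 0.05, beside 8.24% of all genes. By DESeq2 on the recovered reads 2 passed, Gpr17 (adjusted p = 0.00439) and Vcan (adjusted p = 0.0462), where 3.74% of the 16451 genes with an adjusted p did, and 6 were lower at an unadjusted p under 0.05, beside 7.94% of all genes. The p-values measure the spread between individual mice. In whole tissue, fewer precursor cells and less RNA per cell cannot be told apart.

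**Figure D1:**
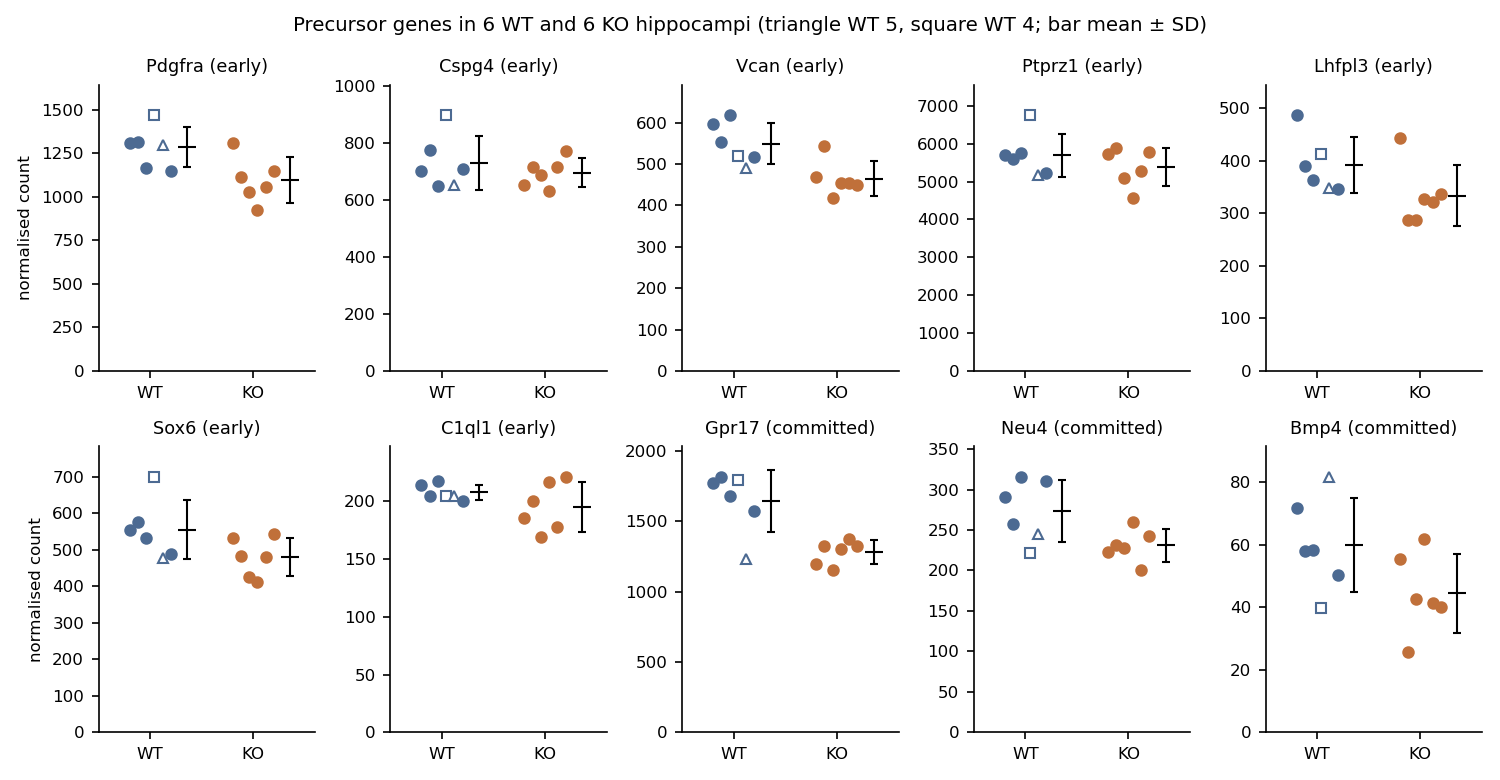
Normalised counts (vertical axes, starting at 0) of the 10 precursor genes in 6 WT (blue) and 6 KO (orange) hippocampi, each point a mouse and the black bar the mean ± SD. WT 5 is drawn as an open triangle and WT 4 as an open square: Gpr17 of WT 5 (1228) lies among the KO mice (1151 to 1376), and WT 4 is the highest mouse for Pdgfra, Cspg4, Ptprz1 and Sox6.

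Gpr17, the orphan receptor that marks the committed stage, had the smallest p of the 10 genes. The gene (ENSMUSG00000052229) lies on chromosome 18 from 31942997 to 31949636 on the minus strand and has 2 exons. Its normalised counts in WT 1 to WT 6 were 1767, 1815, 1677, 1788, 1228 and 1569, and in KO 1 to KO 6 they were 1195, 1324, 1151, 1302, 1376 and 1326. All WT mice but WT 5 were above every KO mouse, and WT 5 was inside the KO range. The means were 1641 ± 221 in WT and 1279 ± 86.7 in KO mice (SD, n = 6 each), a difference of -0.35 on the log2 scale with an SE of 0.085 (95% interval -0.53 to -0.17). The limma adjusted p was 0.0779 and did not pass, and a two-sided exact permutation test of this gene alone gave p = 0.0108.

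This result turned on WT 5. Without it the WT mean of Gpr17 was 1723 ± 100 (SD, n = 5), the genotypes no longer overlapped (with all mice, 1.08% of all genes tested were lower in KO mice without overlap, and 0 of the 10 precursor genes), and the difference was -0.43 with a limma adjusted p of 0.0032. The exact permutation test then gave p = 0.00216, the smallest that 5 against 6 mice allow. WT 5 was the only WT mouse inside the KO range, so leaving it out fixed this p and the lack of overlap in advance. Neither adds support for a difference, and WT 5 was singled out after seeing the data. WT 5 was also the WT mouse with the least Usf1 and the most choroid plexus RNA, and the part of these in its Gpr17 value was not tested. WT 1, which also held choroid plexus RNA, had a Gpr17 count of 1767, among the other WT mice. Without both WT 1 and WT 5, a choice made after seeing the data, the difference was -0.42 with an adjusted p of 0.0153. When other mice were left out in turn, the adjusted p of Gpr17 stayed above 0.05, up to 0.205 without WT 1, and the difference kept its sign.

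Reads of Gpr17 could not be fully separated from those of Lims2, since the 188 bases of exon shared by these genes lie on opposite strands and the strand setting of the counting is not given in the sources used here. Lims2 encodes an adaptor protein of cell-matrix contacts. Its normalised count was 274 ± 30.4 in WT (231 to 308) and 207 ± 12.5 in KO mice (196 to 229), and the genotypes did not overlap, as in 1.50% of all genes tested. The level of Lims2 was below that of Gpr17 in every mouse. Of the other precursor genes, Cspg4, Ptprz1 and Neu4 overlapped no annotated gene. For the rest, the overlapping genes that the table held had mean normalised counts of at most 45.3. Where exon bases were shared, these counts were at most 5.36.

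**Figure D2:**
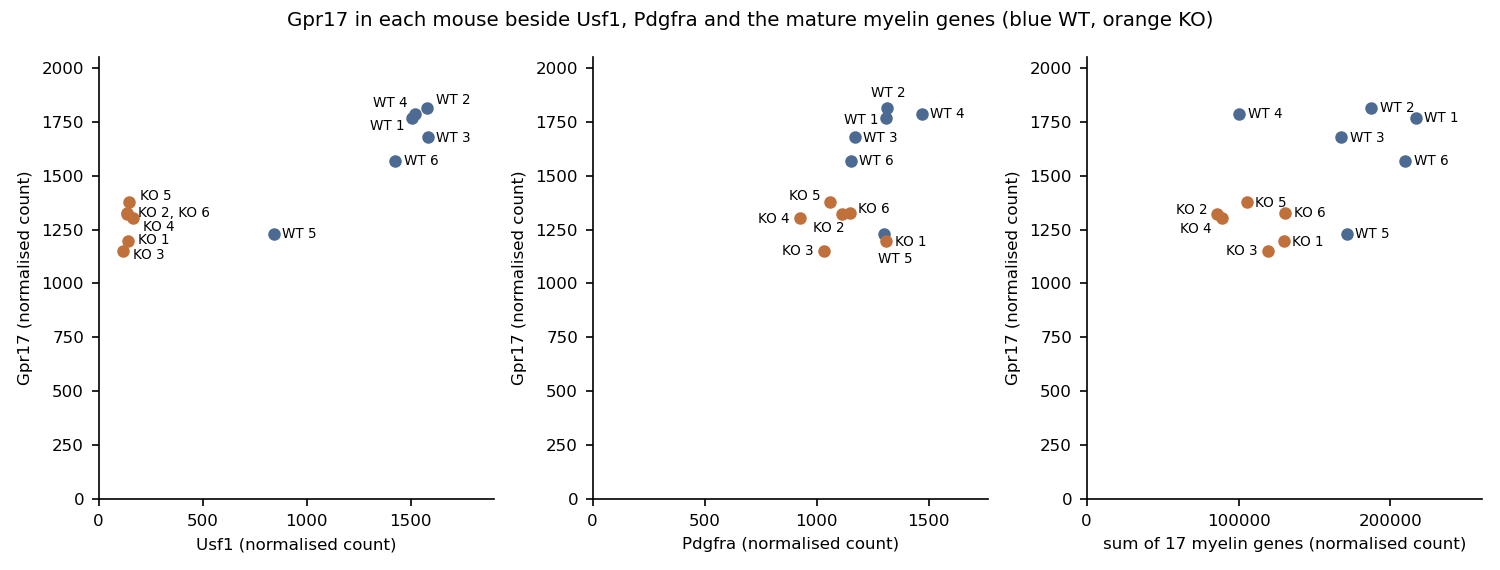
Gpr17 (vertical axes, normalised count) in each mouse against Usf1 (left), Pdgfra (middle) and the sum of 17 genes of mature myelin (right), with WT mice in blue and KO mice in orange. WT 5 has both the lowest WT Usf1 (842) and the lowest WT Gpr17 (1228), while WT 4 has a myelin sum inside the KO range (100417) and a Gpr17 count of 1788 above every KO mouse.

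Neu4 encodes a sialidase that trims sialic acid from glycoproteins and gangliosides and is found in precursors before they mature. The gene (ENSMUSG00000034000) lies on chromosome 1 from 94020451 to 94028334. Its normalised counts were 291, 257, 316, 221, 245 and 311 in WT 1 to WT 6 and 223, 232, 228, 260, 200 and 243 in KO 1 to KO 6. The groups overlapped, with WT 4 below 5 of the 6 KO mice. The means were 274 ± 38.1 and 231 ± 19.9 (SD, n = 6 each), a difference of -0.24 with an SE of 0.093 and a limma adjusted p of 0.276. Without WT 1 and WT 5 the difference was -0.25 with a limma adjusted p of 0.492.

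Bmp4 encodes a secreted bone morphogenetic protein, a ligand that holds precursors back from making myelin and that committed precursors themselves make. The gene (ENSMUSG00000021835) lies on chromosome 14 from 46383520 to 46390669 on the minus strand. It rested on 23 to 90 reads a library and was the most scattered of the 10 genes, with a coefficient of variation of 24.9% among WT and 28.5% among KO mice. Its normalised counts were 71.6, 58.0, 58.2, 39.8, 81.7 and 50.4 in WT 1 to WT 6 and 55.3, 25.8, 42.5, 61.9, 41.3 and 40.2 in KO 1 to KO 6. The groups overlapped widely, and KO 2 alone was below every WT mouse. The difference of -0.44 had the widest interval of the 10, from -0.89 to 0.02, with an adjusted p of 0.389 by limma. Without WT 1 and WT 5, whose counts were the highest of the WT mice, it was -0.24 with a limma adjusted p of 0.800.

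Pdgfra, the receptor for the growth factor that keeps precursors dividing, is the classical early marker (ENSMUSG00000029231, chromosome 5, 75152292 to 75198215). Its normalised counts in WT 1 to WT 6 were 1308, 1315, 1168, 1470, 1299 and 1152, and in KO 1 to KO 6 they were 1311, 1112, 1030, 924.5, 1060 and 1147. KO 1 stood among the highest WT mice and the other 5 KO mice were below every WT mouse. The means were 1285 ± 116 and 1098 ± 130 (SD, n = 6 each), a difference of -0.23 with an SE of 0.078, a limma adjusted p of 0.199 and an exact two-sided permutation p of 0.0216.

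Vcan encodes versican, a large chondroitin sulphate proteoglycan of the precursor's surroundings (ENSMUSG00000021614, chromosome 13, 89655312 to 89742509). Its normalised counts were 597, 552, 618, 520, 489 and 516 in WT 1 to WT 6 and 469, 543, 419, 454, 453 and 450 in KO 1 to KO 6. Again 5 KO mice lay below every WT mouse, and the exception, KO 2, lay among the WT mice. The difference was -0.24 with an SE of 0.071, the smallest SE of the 10 genes, and gave a limma adjusted p of 0.137 and an exact permutation p of 0.0130.

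Lhfpl3 encodes a membrane protein of the tetraspan family and Sox6 a transcription factor that keeps precursors immature. Lhfpl3 (ENSMUSG00000106379, chromosome 5, 22746059 to 23275597) ran from 347 to 487 with a median of 377 in WT mice and from 287 to 443 with a median of 324 in KO mice. All KO mice but KO 1 were below every WT mouse. Sox6 (ENSMUSG00000051910, chromosome 7, 115470872 to 116038796) ran from 478 to 700 with a median of 543 in WT mice and from 412 to 542 with a median of 482 in KO mice, and the groups overlapped from 478 to 542, with 4 KO mice inside this stretch. The differences were -0.23 with an SE of 0.109 and -0.20 with an SE of 0.094, with limma adjusted p of 0.368 and 0.364.

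The remaining early genes differed least. Cspg4, the NG2 proteoglycan of the precursor's surface (ENSMUSG00000032911, chromosome 9, 56865033 to 56899870), had medians of 704 in WT and 701 in KO mice. Ptprz1, a receptor phosphatase whose outer part is itself a proteoglycan (ENSMUSG00000068748, chromosome 6, 22875502 to 23052916), had medians of 5644 and 5504. C1ql1, a secreted C1q-like protein (ENSMUSG00000045532, chromosome 11, 102939264 to 102946688), had medians of 205 and 193. The ranges of the genotypes overlapped in all 3, and for C1ql1 the WT mice lay close together (201 to 218) within the spread of the KO mice (169 to 221). The 95% intervals of the difference were -0.23 to 0.10 for Cspg4, -0.23 to 0.08 for Ptprz1 and -0.26 to 0.06 for C1ql1 on the log2 scale, so that differences of the size seen for Pdgfra stayed within or next to them. The early genes for which WT 4 was the highest mouse leaned on it, and without WT 4 the difference was -0.00 for Cspg4, -0.03 for Ptprz1, -0.14 for Sox6 and -0.19 for Pdgfra. Without WT 1 and WT 5, the differences of the early genes were -0.22 for Pdgfra, -0.25 for Vcan, -0.25 for Sox6, -0.19 for Lhfpl3, -0.11 for Cspg4, -0.11 for Ptprz1 and -0.09 for C1ql1, and the lowest limma adjusted p among them was 0.291, for Vcan.

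**Figure D3:**
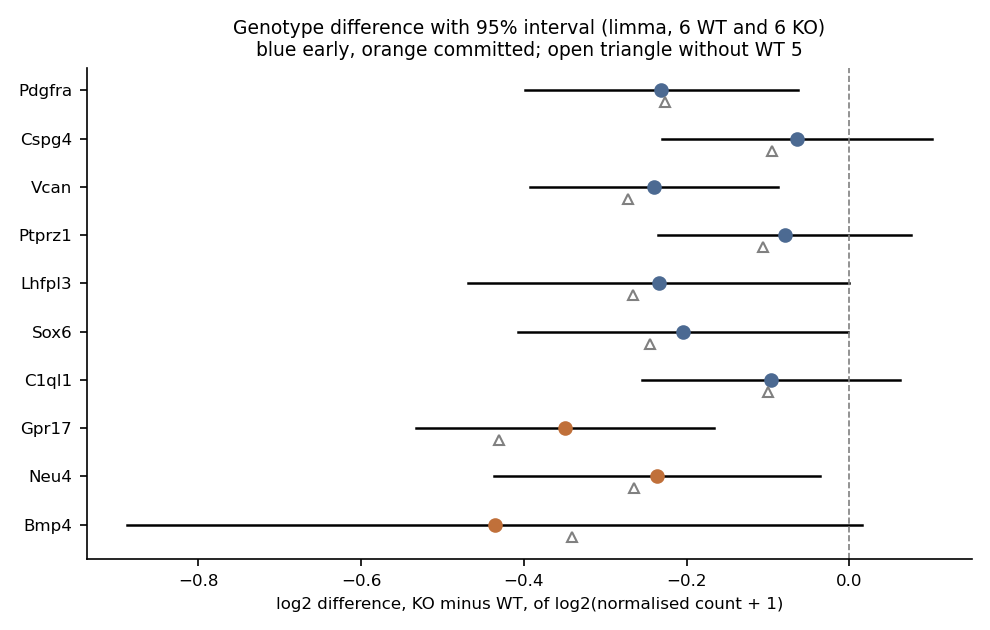
Differences between KO and WT mice on the scale of log2(normalised count + 1), with 95% intervals from limma over 6 WT and 6 KO mice, early genes in blue and committed genes in orange; open triangles give the difference without WT 5. All 10 estimates lie below 0, those of Pdgfra, Vcan, Lhfpl3, Sox6, Gpr17 and Neu4 with intervals that end below 0, and leaving out WT 5 moves Gpr17 from -0.35 to -0.43 and Bmp4 from -0.44 to -0.34.

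Set against the length of their exons, the WT levels ran in the order Ptprz1 with 400.0 ± 40.1 normalised counts per kb of exon, Gpr17 with 316 ± 42.6, C1ql1 with 141 ± 4.50, Pdgfra with 128 ± 11.6, Lhfpl3 with 122 ± 16.6, Cspg4 with 61.1 ± 7.88, Neu4 with 59.0 ± 8.22, Vcan with 38.0 ± 3.46, Sox6 with 37.4 ± 5.41 and Bmp4 with 26.7 ± 6.64 (SD, n = 6). The ranges of WT mice overlapped between C1ql1 and Pdgfra, Pdgfra and Lhfpl3, Cspg4 and Neu4, Vcan and Sox6, and Sox6 and Bmp4, so neighbours in these pairs were not set apart beyond their spread. The ranges did not overlap between the other neighbours, so Ptprz1 stood above Gpr17 and Gpr17 above C1ql1 in all 6 WT mice. The early and committed genes were interleaved along this order. Several of these genes are read in other cells as well, Ptprz1 and Sox6 in astrocytes or neurons and Pdgfra and Vcan in cells of the meninges, so a level is that of the whole tissue.

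**Figure D4:**
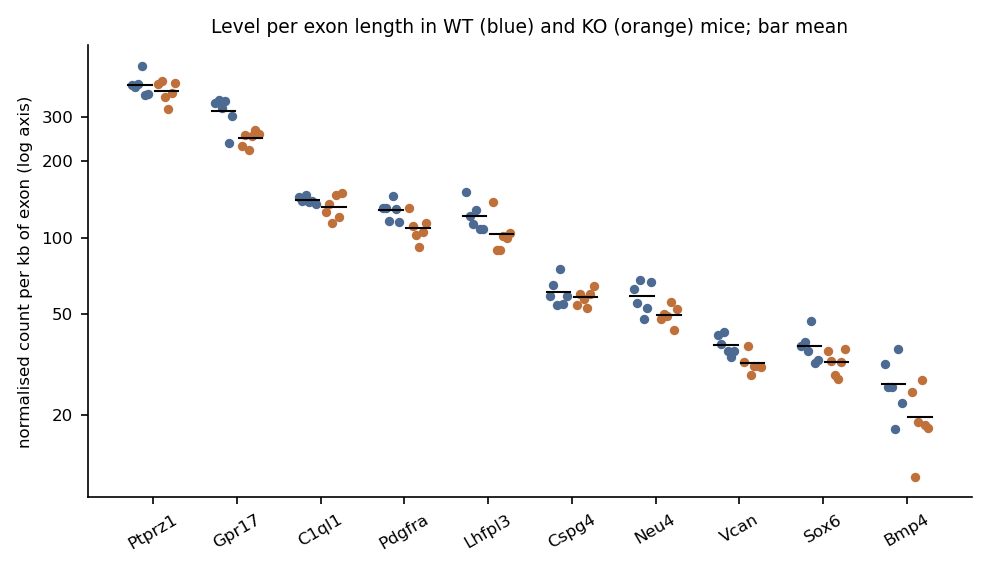
Level of each precursor gene per length of exon (normalised count per kb, log axis) in WT (blue) and KO (orange) mice, each point a mouse and the bar the mean. Ptprz1 and Gpr17 stand at the top with WT means of 400.0 and 316, and Bmp4 at the bottom with 26.7.

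The balance between the stages overlapped between the genotypes. The ratio of Gpr17 to Pdgfra counts was 1.28 ± 0.180 in WT mice, from 0.945 in WT 5 to 1.44, and 1.18 ± 0.169 in KO mice, from 0.911 in KO 1 to 1.41 (SD, n = 6 each). As the mean over the committed genes minus the mean over the early genes, each centred over the 12 mice on the log2 scale, the balance was 0.09 ± 0.19 in WT and -0.09 ± 0.20 in KO mice. By mouse it was 0.19, 0.09, 0.20, -0.30, 0.18 and 0.18 in WT 1 to WT 6 and -0.13, -0.35, -0.02, 0.25, -0.11 and -0.17 in KO 1 to KO 6. On this measure WT 4 lay among the KO mice and KO 4 above every WT mouse. Bmp4, with 23 to 90 reads a library, counted as much in it as Gpr17 or Neu4. The Bmp4 count was the lowest of the WT mice in WT 4 (39.8) and the highest of the KO mice in KO 4 (61.9). The part of Bmp4 in this measure was not tested. The ratio overlapped also without WT 5, the other WT mice running from 1.22 to 1.44. No test was made of either measure, since the genes were chosen with earlier results known. The median difference between KO and WT was -0.20 over the 7 early genes and -0.35 over the 3 committed genes, beside -0.00 over all genes tested.

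Covariation from mouse to mouse was strongest between Sox6 and other early genes. Over the 45 pairs of precursor genes, with values on the log2 scale centred on the mean of each genotype, 2 pairs passed a permutation test after Benjamini-Hochberg adjustment over the pairs. Ptprz1 and Sox6 had r = 0.91 and rho = 0.90 over the 12 mice (permutation test, adjusted p = 0.0162 and 0.0133), and r = 0.84 without the 2 mice farthest from the median of Ptprz1. Pdgfra and Sox6 had r = 0.81 and rho = 0.90 (permutation test, adjusted p = 0.0468 and 0.0133), and r = 0.80 without the 2 mice farthest from the median of Pdgfra. Within genotypes r was 0.96 and 0.87 for the first pair and 0.78 and 0.88 for the second, in WT and KO mice. Vcan and C1ql1 did not share this pattern with Pdgfra (r = 0.02 and -0.14). Of the 45 pairs, 31 had a positive r. The most negative, each of an early and a committed gene, were Cspg4 and Bmp4 (r = -0.69), Ptprz1 and Bmp4 (r = -0.66) and Pdgfra and Neu4 (r = -0.62). None of these passed the permutation test after adjustment (adjusted p of 0.119, 0.168 and 0.168). Pdgfra and Gpr17 had r = 0.05, with an adjusted p of 0.942 in the permutation test. Pairs share their libraries and dissections: WT 4, the highest mouse for Pdgfra, Cspg4, Ptprz1 and Sox6, also had the highest summed levels of astrocyte (146156) and microglial markers (10708) of all mice, and the part of these was not tested.

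Of 12677 genes with a mean of at least 100, those most like Pdgfra from mouse to mouse within genotypes were Flrt1 (r = 0.98), 9330182L06Rik (r = 0.95) and Slc7a11 (r = 0.94), over 12 mice. Flrt1 encodes a cell adhesion protein and Slc7a11 a cystine and glutamate exchanger. Those most like Gpr17 were Usf1 (r = 0.90), Abcf1 (r = 0.89) and Panx2 (r = 0.89). Much of the likeness of Gpr17 to Usf1 came from WT 5, without which r was 0.70, and rho over the 12 mice was 0.55. These correlations were picked as the highest of many and are given as descriptions with no test.

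Sex differed between the groups of mice and was added as a term. With sex in the fit, the differences between genotypes ran from -0.02 for Ptprz1 to -0.51 for Bmp4, all 10 still lower in KO mice, and 0 passed limma's adjustment, where 0.538% of all genes did. At an unadjusted p under 0.05, 5 were lower (Gpr17, Vcan, Pdgfra, Neu4 and Bmp4), where the share among all genes was 7.10%. Gpr17 was at -0.30 with a limma adjusted p of 0.160 in this fit. Within females (4 WT, 2 KO) the difference of Gpr17 was -0.49 with an SE of 0.096, and within males (2 WT, 4 KO) it was -0.11 with an SE of 0.096. The 4 WT females ran from 1677 to 1815 and the 2 KO females were 1195 and 1324. The share of all genes with such a gap between 4 and 2 females was not counted, so the gap is given as a description. Of the 2 WT males, WT 6 with 1569 was above the 4 KO males (1151 to 1376), and WT 5 with 1228 was among them. The interaction of sex and genotype for Gpr17 was 0.37 with an unadjusted limma p of 0.0175 and an adjusted p of 0.9999, and no gene of the 18221 passed (3.45% had an unadjusted p under 0.05).

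Within sexes the other genes rested on the same few mice. Pdgfra was -0.12 in females and -0.24 in males, Vcan was -0.18 in both, Neu4 was -0.24 and -0.25, and Bmp4 was -0.55 and -0.48, each with an SE of 0.086 to 0.328. Cspg4 was the exception in sign, at -0.14 in females and 0.04 in males, with an interaction p of 0.308 before adjustment in limma. Between males and females at the same genotype, the largest differences were -0.21 for Sox6, -0.21 for Lhfpl3, -0.18 for Vcan and -0.18 for Ptprz1 among the early genes, lower in males. Of the 10 genes 0 differed by sex after limma's adjustment, where 0.0549% of all genes did, and 4 had an unadjusted p under 0.05 (Vcan, Ptprz1, Sox6 and Pdgfra), where 6.45% of all genes did.

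The transcription factors of the lineage were read next. Of 19 tested, 0 passed the test in either direction, 12 had a lower mean in KO mice, and their median difference was -0.10. Without WT 1 and WT 5, 0 of them passed as well. At an unadjusted limma p under 0.05, 6 of the 19 were lower in KO mice, where the share among all genes was 7.60%. Of the factors named next, Olig1 and Sox10 were picked after their values were seen. Olig1, which is needed for precursors to mature, was 2360 ± 315 in WT and 1889 ± 86.3 in KO mice (adjusted p = 0.0734 by limma). Sox10, the factor that switches on myelin genes, was 1564 ± 258 and 1109 ± 174 (adjusted p = 0.0767 by limma). Myrf, the master factor of the myelin programme, was 2550 ± 535 and 1774 ± 220 (adjusted p = 0.115 by limma). Tcf4 and Zeb2, which neurons also express, were the most abundant of the list and stood at 0.08 and 0.10 on the log2 scale.

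Of 20 other precursor markers, 0 passed, 16 had a lower mean in KO mice and the median difference was -0.10. An unadjusted limma p under 0.05 was found for 3 of the 20, where 13.5% of all genes had one. These were Ednrb at -0.24 and, higher in KO mice, Sema5a at 0.36 and Dscam at 0.11, all named after their values were seen. The most abundant were Tnr, Cspg5 and Serpine2, which other brain cells also make, with differences of 0.03, -0.02 and -0.04. Of 16 other markers of committed or newly formed oligodendrocytes, 2 passed, both lower in KO mice, and the median difference was -0.17. Tns3, a focal adhesion protein of newly formed oligodendrocytes, was 2255 ± 173 in WT and 1731 ± 98.6 in KO mice, and fell by 0.38 on the log2 scale (adjusted p = 0.00383 by limma). Lims2 fell by 0.40 (adjusted p = 0.0293 by limma) and shares exon bases with Gpr17, as described. Tns3 passed in all 12 fits that left out a mouse, while Lims2 passed in 5 of 12, with a limma adjusted p of 0.0567 to 0.0883 without any of WT 1, WT 3, WT 6, KO 3, KO 4, KO 5 or KO 6. Without WT 1 and WT 5 both passed, Tns3 at -0.32 and Lims2 at -0.42 (limma adjusted p of 0.0257 and 0.0478). Of the most abundant genes of this list, Bcas1, a protein of cells starting to myelinate, was at -0.45, and Vxn and Sirt2 were at -0.09 and -0.21, none past the test.

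Mature myelin genes, the stage after the precursors, differed more than either precursor stage. All 17 had a lower mean in KO mice, and 2 passed the test. Ugt8a, which makes the lipid galactosylceramide, fell by 0.90 (adjusted p = 0.0167 by limma) and Car2, a carbonic anhydrase of oligodendrocytes, fell by 0.59 (adjusted p = 0.0253 by limma). The median difference over the list was -0.70, with -0.59 for Mbp and -0.60 for Cnp, which were among the most abundant. Summed over the list, the level was 216918, 187415, 167671, 100417, 171282 and 209764 in WT 1 to WT 6 and 86032 to 130773 in KO mice. Only WT 4 lay inside the KO range, and this was the mouse with the highest Pdgfra, while its Gpr17 of 1788 was above every KO mouse. The count of the list turned on this mouse as well, with 17 of 17 genes past the test without WT 4 and 0 without WT 1 or without KO 5. Of all genes, 515 passed without WT 4, against 164 with all mice. Since WT 4 alone lay inside the KO range of the sum, leaving it out drew the genotypes apart. The 17 of 17 therefore adds no support for a difference. Of the 12 fits that left out a mouse, Ugt8a was lost only without WT 1 and without KO 5 (limma adjusted p of 0.0503 and 0.0538). Car2 was lost in 7 of 12, those without WT 1, WT 3, WT 6, KO 2, KO 3, KO 4 or KO 5 (limma adjusted p of 0.0505 to 0.0710).

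**Figure D5:**
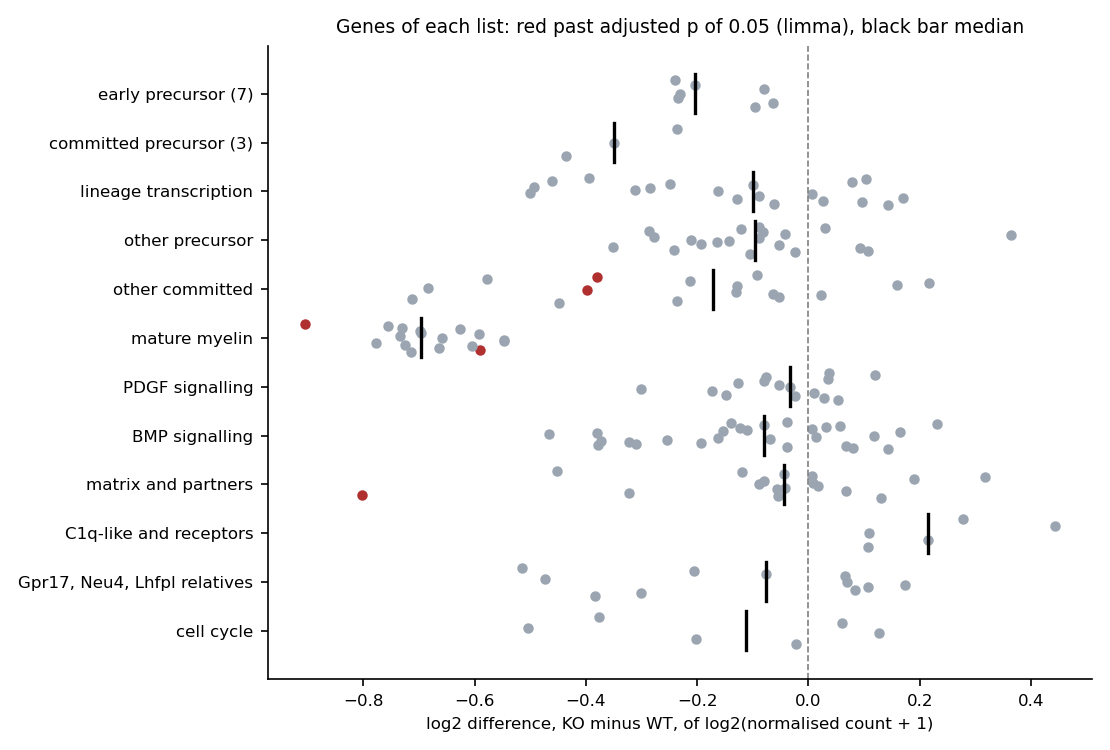
Difference between KO and WT mice (horizontal axis, log2 scale) of each tested gene of the precursor genes and the other lists, with genes past a limma adjusted p of 0.05 in red and the median of each list as a black bar. The medians are -0.20 for early precursor genes, -0.35 for committed precursor genes and -0.70 for mature myelin genes, and the red genes are Tns3, Lims2, Ugt8a, Car2 and Adamts4.

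The pathways that the precursor genes belong to were read from their other members. In PDGF signalling, which starts at Pdgfra, 0 of 15 genes passed and the median difference was -0.03. The ligand Pdgfa was 756 ± 28.4 in WT and 682 ± 30.1 in KO mice, with an unadjusted limma p of 0.00351 and an adjusted p of 0.126. Ptpn11, Crk and Grb2, which carry the signal inside the cell, were the most abundant and stood at -0.08, 0.05 and 0.03. In BMP signalling, to which Bmp4 belongs, 0 of 27 passed and the median was -0.08, and the receptors Bmpr2 and Bmpr1a were at 0.01 and -0.07 and the antagonist Chrd at 0.12.

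Among the proteoglycans that resemble versican and NG2 and the partners that bind or cut them, 1 of 17 passed. It was Adamts4, a protease that cuts versican and related proteoglycans and is made by oligodendrocytes, at 874 ± 184 in WT and 495 ± 73.2 in KO mice, and it fell by 0.80 (adjusted p = 0.0167 by limma). The limma adjusted p of Adamts4 was 0.0787 without WT 1 and WT 5. Its place in the genome relative to Usf1 was not examined, and the cause of its fall was not tested. Cntn1, a binding partner of Ptprz1, and the proteoglycans Bcan and Ncan were at 0.02, 0.07 and -0.04, and the median of the list was -0.04.

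Relatives of the single genes did not pass either. Of 5 tested C1q-like proteins and their brain angiogenesis inhibitor receptors, 0 passed, all had a higher mean in KO mice, and the median was 0.21. Among all 18221 genes tested, 9069 had a higher fitted mean in KO mice. At an unadjusted limma p under 0.05, 3 of the 5 were higher in KO mice, where 13.5% of all genes had such a p in either direction. The receptors Adgrb2, Adgrb1 and Adgrb3 were the most abundant, at 0.21, 0.11 and 0.11. Of 11 relatives of Gpr17, Neu4 and Lhfpl3, 0 passed, and Lhfpl4, Neu1 and Lhfpl2 were at 0.11, 0.07 and 0.08 with a list median of -0.08. Of 6 genes of the cell cycle, which precursors would share with other dividing cells, 0 passed and the median was -0.11. Pcna, Mcm2 and Mcm5 were at 0.06, -0.20 and 0.13. An unadjusted limma p under 0.05 was found for 2 of the 6, where 13.5% of all genes had one. These were Mki67 at -0.50 and Top2a at -0.38, both named after their values were seen. Their mean normalised counts were low, at 45.4 and 38.2.

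Markers of other cell types that the tissue holds were given the same test, and 0 passed in any of these lists. Cells of the meninges and mural cells share Pdgfra or Cspg4 with precursors. Meningeal fibroblast markers, led by Dcn and Slc13a3, summed to 1290 to 3071 in WT and 1241 to 3263 in KO mice, and mural cell markers, led by Rgs5 and Vtn, to 4047 to 5500 and 3989 to 5109. Endothelial markers, led by Flt1 and Slco1a4, summed to 3258 to 4204 and 3340 to 4057. Medians of the difference were -0.10, 0.03 and 0.03 for these lists, and none of their markers was at 0. KO 1, the KO mouse with the most Pdgfra, had the highest sum of meningeal markers of all mice (3263), and the part of these cells in its value was not tested.

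Astrocyte markers, led by Slc1a2 and Aldoc, had a median difference of -0.03 and summed to 109445 to 146156 in WT and 117306 to 131544 in KO mice. Interneuron markers, led by Gad1 and Kcnc1, had a median of -0.01 and summed to 23225 to 26606 and 22834 to 25613. Microglial markers, led by Csf1r, had a lower mean in KO mice for 8 of 8 genes, with a median of -0.21. Of these, 7 had an unadjusted limma p under 0.05, where 7.60% of all genes were lower at such a p. Their sums were 7833 to 10708 in WT and 7370 to 8224 in KO mice. Choroid plexus markers, led by Ttr and Kl, had a median of -1.15 that came with WT 1 and WT 5. Hippocampal neuron markers, led by Camk2a and Slc17a7, had a median of 0.14. The part of the microglial markers in the values of the precursor genes was not tested.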

How the data were processed

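RNA from the hippocampus of 12 mice (6 WT, 6 USF-1 KO) was sequenced. The deposited values are a signal per gene, for which the authors scaled read counts by library size factors with DESeq2 after STAR alignment. The submitters' processing notes name STAR 2.5.0a, edgeR 3.22.2 and the mm10 build. The counter, annotation and strand setting are not given in the sources used here. Coordinates were the same as in GENCODE M21 (GRCm38) for 54821 of 55227 genes with a matching identifier. In every library 100% of values were whole multiples of what 1 read is worth, within 0.01 of a read, and gave back the reads. No pair of libraries was a repeat (lowest chi-square per degree of freedom 4.54).

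The 18221 genes whose normalised count averaged 10 or more entered limma 3.58.1 (R 4.3.3), with a mean-variance trend and genotype as the only term, on log2(normalised count + 1) over all 12 mice, two-sided; p was adjusted by Benjamini-Hochberg and called under 0.05. Differences on this scale understate those of low genes. Single genes had exact permutation tests over mice, and correlations 100000 resamples within genotype. As alternatives, edgeR 4.0.16 and DESeq2 1.42.0 were run on the recovered reads, the pseudocount was 0.5 or 5, the minimum mean was dropped or raised to 50, libraries were brought to equal totals or quantile normalised, sex was added, the trend was dropped, the threshold was 0.1, and mice were left out in turn. Steps were tested on simulated counts.

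The genes and lists were chosen with earlier results of these data known. Named were the 10 genes, Usf1, in each list the genes past the threshold and the 3 of highest mean (2 for other cell types), the 3 genes most like Pdgfra and Gpr17, and genes overlapping a precursor gene. Olig1, Sox10, Ednrb, Sema5a, Dscam, Pdgfa, Mki67 and Top2a were named after their values were seen. The values of 2 genes that this rule would name are not reported here. Per-kb levels used the union of exons of each gene.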

Additional observations from a re-analysis of the deposited data

Results flagged for a closer look

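In 36 groups of 6 mice (the precursor genes, Usf1, Lims2 and summed markers in each genotype), the highest or lowest mouse was compared with its neighbour by Dixon's test, which marks about 1 in 20 such groups by chance, and 4 were marked. Ptprz1 in WT 4 was 6754, above the other WT mice at 5176 to 5747. Lhfpl3 in KO 1 was 443, above the other KO mice at 287 to 337, and without KO 1 its difference between genotypes was -0.32 with a limma adjusted p of 0.101. Usf1 in WT 5 was 842, below the other WT mice at 1425 to 1583 and above all KO mice. The summed choroid plexus markers of WT 5 were 167182, above the other WT mice at 935 to 59529.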

How the results depend on the processing

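Over the 10 precursor genes and 24 alternatives, all 240 differences were lower in KO mice and 5 passed the threshold in use, 4 of them for Gpr17 and 1 for Vcan. Of 0 precursor genes past the test, DESeq2 made 2, a threshold of 0.1 made 1 (Gpr17), and leaving out WT 1 and WT 5, chosen after seeing the data, made 1 (Gpr17); leaving out single mice gave 0 to 1. Of all genes, 164 passed, against 98 with sex as a covariate, 109 without the trend, 616 with DESeq2, 343 at 0.1, 59 without WT 1 and WT 5, and 64 (without WT 1) to 515 (without WT 4) without single mice. DESeq2 called 5 lineage factors, 5 other committed markers, 16 myelin genes and 1 relative of Gpr17, Neu4 and Lhfpl3. A threshold of 0.1 gave 2 lineage factors, 4 other committed markers and 9 myelin genes. Quantile normalisation and sex as a covariate each left 1 other committed marker, and no trend left 1 myelin gene. Without WT 1 and WT 5, 0 myelin genes and 0 proteoglycans and partners passed. Without single mice the counts were 0 to 3 lineage factors (3 without WT 4), 1 to 6 other committed markers (6 without WT 4), 0 to 17 myelin genes (0 without WT 1 or KO 5, 17 without WT 4) and 1 to 2 proteoglycans and partners (2 without KO 1). The cause of these shifts was not tested. No paired analysis was possible because the labels give the mice no shared replicate numbers. Bmp4, with 23 to 90 reads a library, has the least depth behind it.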
